A study of Mus musculus with 5 samples.

Results

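MicroRNA genes were examined on microarrays of RNA recovered with FLAG-tagged MKRN1, a makorin RING-finger RNA-binding protein, from R1 mouse embryonic stem cells. The genes were those named by a probe set (the group of probes read as 1 signal) with a single gene symbol that begins with Mir and a digit, or with Mirlet. The brightest probe set stood for each gene, and a gene was kept where its mean over the 5 arrays reached log2 5.76, the median of all probe-set means. Of 300 microRNA genes named in this way by 305 probe sets, 63 were kept and 237 lay below the filter. The 63 were selected on their mean signal, which includes the array in which most of them were highest, so their counts and medians are given as a description of the selected genes. The 2 kept symbols Mir17hg and Mir99ahg name host transcripts that carry microRNAs, not hairpins.

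The 5 groups held 1 array each. The FLAG:Ctrl input and the FLAG:MKRN1 input were total RNA of lysates of G418-resistant clones that constitutively expressed a 3xN-FLAG construct or the 3xN-FLAG:MKRN1 fusion from a pCAGGS vector. The cells were male, of the 129X1 x 129S1 background, and were grown with LIF and serum on gelatin after leaving a layer of embryonic fibroblasts. The FLAG:Ctrl anti-FLAG RIP and the FLAG:MKRN1 anti-FLAG RIP were RNA immunoprecipitated with anti-FLAG from these lysates, and the FLAG:MKRN1 IgG RIP was RNA recovered with IgG beads from the FLAG:MKRN1 lysate. How many clones stood behind a lysate is not given in the sources used here. With 1 array per group no difference has a replicate check, no test between groups could be made, and precision is limited by how few arrays there are.

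A microRNA is cut from a hairpin in a longer primary transcript by the Drosha and Dgcr8 microprocessor, exported by Xpo5, cut again by Dicer1 and loaded on an Argonaute protein, which it guides to messages that pair with its seed, bases 2 to 8. In mouse embryonic stem cells the Mir290 cluster and the Mir17 family of clusters (Mir17-92, Mir106a-363 and Mir106b-25) are known as abundant microRNAs, and Lin28a holds back the maturation of let-7. The sources used here do not say whether a microRNA probe set reads the primary transcript, the hairpin or the mature RNA, so each value is called the signal of the gene.

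Sequences are shown for Mir6516, Mir335, Mir483, Mir188 and Mir345, which are members with large differences between the MKRN1-labelled RIP and the control RIPs and with a sequence entry, and for the kept members of the Mir17 family and of let-7 and for Mir92b, which shares a seed with Mir363. Mir30d, Mir328 and Mir3107 are named only. All sequences are those of RefSeq, build GRCm38.p6, in which 48 of the 63 members had a hairpin entry and 54 a mature entry. In the hairpins of Mir6516 on chr11:117077348-117077457, plus strand, of Mir363 on chrX:52741693-52741767, minus strand, and of Mir210 on chr7:141221384-141221493, minus strand, capitals mark the mature arms. Mir6516 and Mir363 are shown because they lie at the opposite ends of the differences, and Mir210 as a hairpin rich in G and C, written 5′ to 3′.
Mir6516 hairpin: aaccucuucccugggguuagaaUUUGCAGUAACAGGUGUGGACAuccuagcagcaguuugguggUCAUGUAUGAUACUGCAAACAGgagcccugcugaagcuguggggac
Mir363 hairpin: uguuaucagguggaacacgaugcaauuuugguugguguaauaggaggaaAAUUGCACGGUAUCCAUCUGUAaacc
Mir210 hairpin: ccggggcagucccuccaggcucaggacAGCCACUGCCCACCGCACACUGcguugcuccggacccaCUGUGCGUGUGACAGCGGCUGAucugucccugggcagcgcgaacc
In the mature microRNAs, capitals mark the seed.
mmu-miR-363-3p: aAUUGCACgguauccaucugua
mmu-miR-25-3p: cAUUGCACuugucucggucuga
mmu-miR-92b-3p: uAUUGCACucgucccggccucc
mmu-let-7e-5p: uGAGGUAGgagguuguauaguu
mmu-let-7i-5p: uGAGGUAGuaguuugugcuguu
mmu-miR-6516-5p: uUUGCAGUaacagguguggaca
mmu-miR-6516-3p: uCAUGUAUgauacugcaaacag
mmu-miR-335-5p: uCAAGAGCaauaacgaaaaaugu
mmu-miR-335-3p: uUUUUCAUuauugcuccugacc
mmu-miR-483-5p: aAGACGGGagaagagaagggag
mmu-miR-483-3p: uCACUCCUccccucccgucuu
mmu-miR-188-5p: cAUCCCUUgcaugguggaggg
mmu-miR-188-3p: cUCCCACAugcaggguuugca
mmu-miR-345-5p: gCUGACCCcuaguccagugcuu
mmu-miR-345-3p: cCUGAACUaggggucuggagac
The seed AUUGCAC is shared by miR-363-3p, miR-25-3p and miR-92b-3p and was found in 6 microRNA genes with a probe set, of which these 3 were kept. The let-7 seed GAGGUAG was found in the mature entries of 9 genes, Mir98 among them, of which Mirlet7e and Mirlet7i were kept. Each of the other seeds shown was found in 1 gene with a probe set.

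The labelled cell type and the label of the tagged protein were checked first. Embryonic stem cell markers passed the filter for 14 of 14 genes, with list medians between 10.45 and 10.61 on the 5 arrays. Their list sums (log2 of the summed linear values) were 15.12 to 15.40. Fibroblast markers passed for 6 of 10 genes, primitive endoderm markers for 5 of 8 and trophectoderm markers for 5 of 7. Their list sums were 9.80 to 10.59, 8.91 to 9.61 and 9.73 to 10.19, and their part in the results was not tested. Mkrn1 itself read 11.80 in the FLAG:Ctrl input and 11.71 in the FLAG:MKRN1 input, so its probe set does not tell the lines apart. Every direction below therefore rests on the label of the array, called the MKRN1-labelled RIP from here on. Array medians over all probe sets were 5.76 and 5.77 in the inputs, 5.68 in the FLAG:Ctrl RIP, 5.70 in the IgG RIP and 5.88 in the MKRN1-labelled RIP, and the spread (SD over probe sets) was lowest in the last, at 2.19, against 2.28 to 2.35. With the trend of each difference with signal level removed, the members' median differences described next were 0.58, 0.36 and 0.22.

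Most kept microRNA genes were highest in the MKRN1-labelled RIP, by modest amounts. Of the 63, 52 had their single highest value of the 5 arrays there, 5 in each input, 1 in the IgG RIP and 0 in the FLAG:Ctrl RIP. Signal was higher than in both control RIPs for 56 genes and lower than in both for 2, Mir363 and Mir17hg. These counts, and those of the highest array, were not made over all kept genes. The median difference from the FLAG:Ctrl RIP was 0.61 on the log2 scale, with 59 genes above 0, 3 below and 1 equal. The median difference from the IgG RIP was 0.48, with 57 above and 4 below, and that from the FLAG:MKRN1 input 0.33, with 55 above and 7 below. Over all 11502 kept genes the same medians were -0.03, -0.00 and 0.00. In the same order 4586, 4740 and 5703 of all kept genes lay above 0 and 6018, 5757 and 5003 below. The 3 differences share the MKRN1-labelled array, so they are not independent of each other. Over 3706 other kept genes with means in the middle 50% of the members' range, log2 6.13 to 7.34, the medians were 0.02, 0.03 and 0.06. Of these, 1901, 1961 and 2114 lay above 0 and 1371, 1241 and 1194 below.

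**Figure D1:**
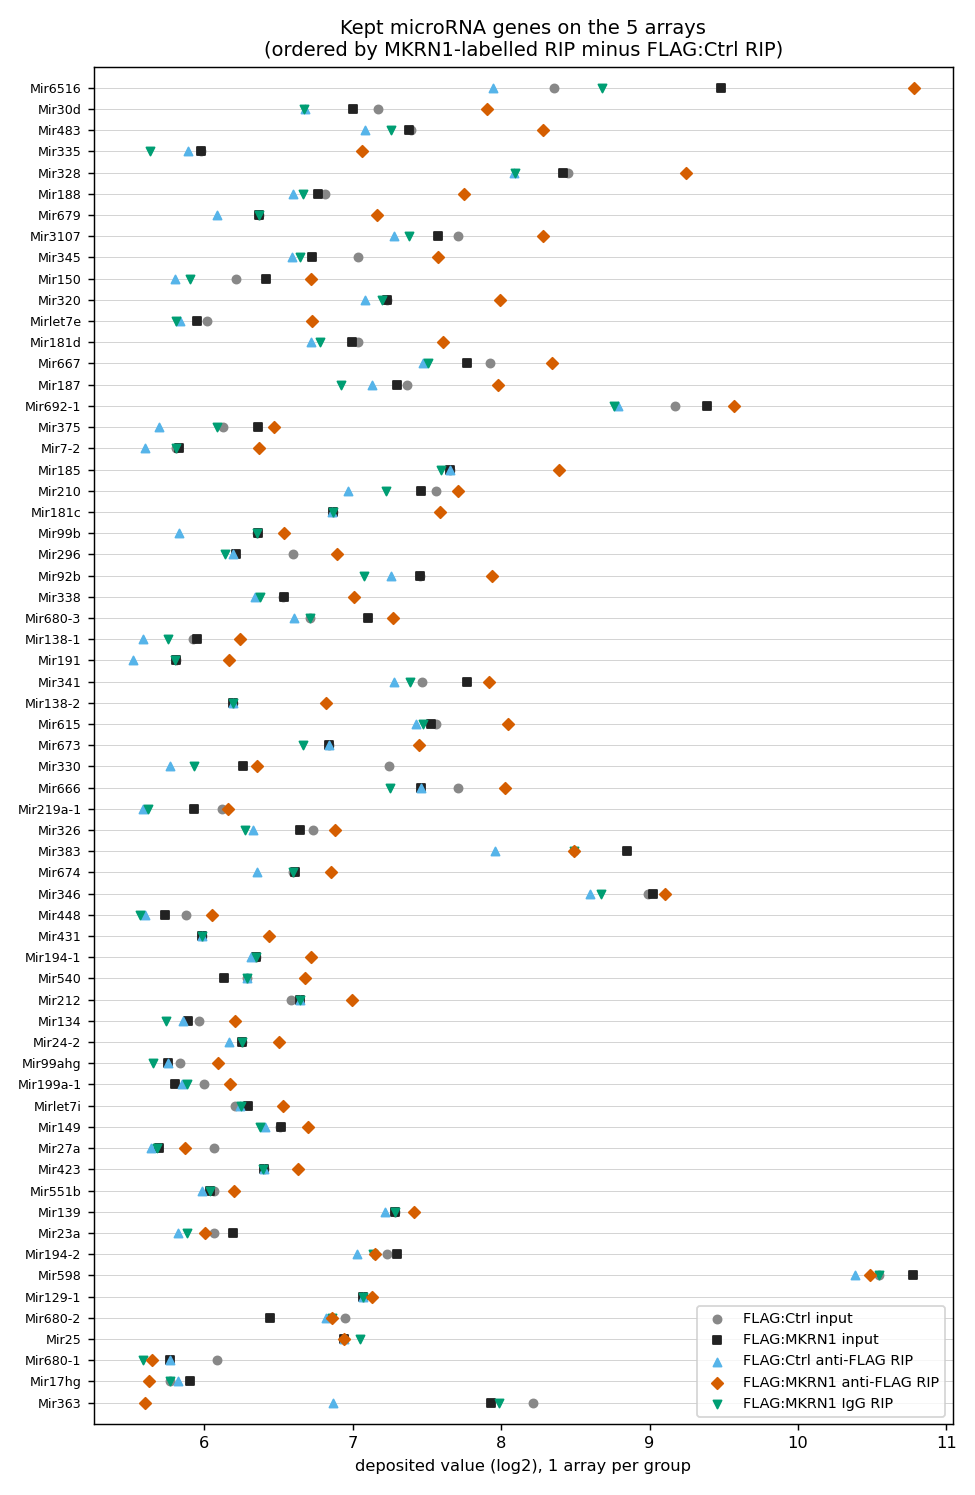
Deposited log2 value of each of the 63 kept microRNA genes (one line each, ordered by MKRN1-labelled RIP minus FLAG:Ctrl RIP) on the 5 arrays, 1 array per group. The diamond of the MKRN1-labelled RIP lies farthest right for 52 genes and farthest left for Mir363 and Mir17hg at the foot.

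The members' medians in the control RIPs lay on the other side of their inputs, and did so under each of the scalings tried. In the FLAG:Ctrl RIP the median difference of the 63 genes from its input was -0.20, with 3 genes above 0 and 52 below. In the IgG RIP the median difference from the FLAG:MKRN1 input was -0.14, with 5 above and 48 below. Over all kept genes both medians were near 0, at 0.01 and 0.00. There 5909 and 5833 genes lay above the input and 3861 and 3696 below. The lowest of the 5 values was in the FLAG:Ctrl RIP for 39 members and in the IgG RIP for 20, with ties counted. This count was not made over all kept genes. These arrays also had the lowest medians over all probe sets, 5.68 and 5.70, so nothing particular to the members is read from it. Between the inputs the members' median difference was 0.00, with 20 genes higher in the FLAG:MKRN1 input and 27 lower. Over all kept genes 4444 were higher there and 5435 lower. In these bulk lysates fewer cells with a transcript and less RNA per cell cannot be told apart.

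**Figure D2:**
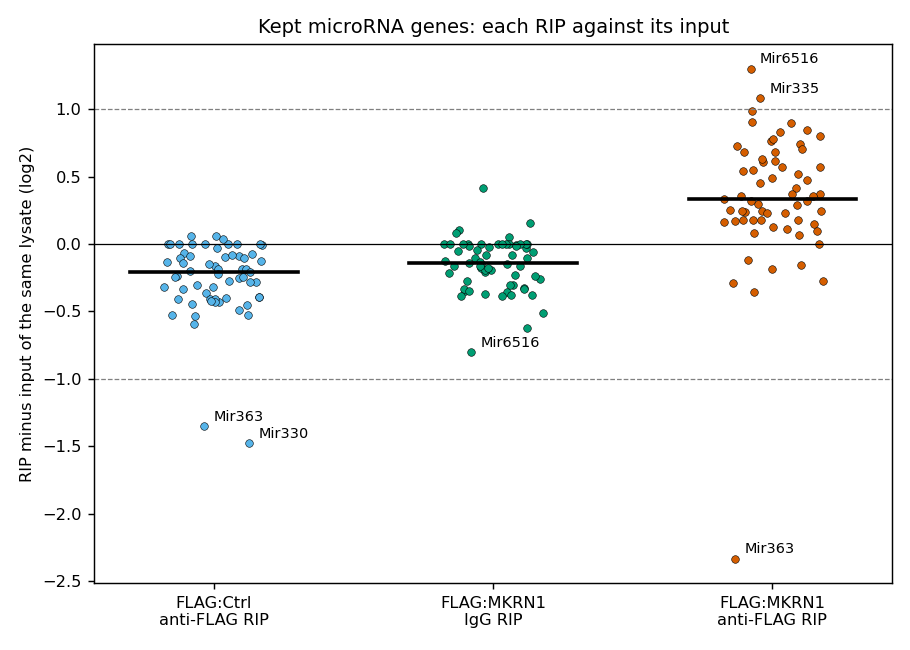
Difference of each RIP from the input of the same lysate (log2) for the 63 kept microRNA genes, with the median as a bar, horizontal jitter for display only and dashed lines at log2 1 and -1. The medians are -0.20 in the FLAG:Ctrl RIP, -0.14 in the IgG RIP and 0.33 in the MKRN1-labelled RIP, and Mir363 lies lowest in the last.

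At a difference of at least 2-fold (log2 1), 6 of the 63 members were higher in the MKRN1-labelled RIP than in both control RIPs and also above its input: Mir6516, Mir335, Mir30d, Mir328, Mir483 and Mir188. That is 9.52% of the members, where the same rule took 125 of the 11502 kept genes, 1.09%. The 1 member lower by the same rule, against both control RIPs and the input, was Mir363, 1.59% of the members against 5.36% of all kept genes. Against the FLAG:Ctrl RIP alone, 9 members were 2-fold apart, 8 higher and 1 lower. That is 14.3% of the members, against 8.73% of all kept genes. Against the IgG RIP alone, 8 were apart, 7 higher and 1 lower, 12.7% against 8.47%. The shares of all kept genes in these 2 comparisons count both directions and were not split. Centring each array on the median of all its probe sets left Mir30d and Mir6516 as the only members at least 2-fold above both control RIPs. At 2-fold it left 2 higher against 1 lower in the comparison with the FLAG:Ctrl RIP.

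Mir6516 stood apart from every other member. Its signal was 8.36 in the FLAG:Ctrl input, 9.48 in the FLAG:MKRN1 input, 7.95 in the FLAG:Ctrl RIP, 10.78 in the MKRN1-labelled RIP and, with IgG, 8.68. Both control RIPs lay below the FLAG:MKRN1 input, and the MKRN1-labelled RIP above it. The difference was 2.83 from the FLAG:Ctrl RIP (7.12-fold), 2.10 from the IgG RIP (4.29-fold) and 1.30 from the input (2.46-fold). Mir6516 was also the 1 member that was 2-fold apart between the inputs, by 1.12, where 1.67% of all kept genes were. Its hairpin lies within the span of the lncRNA gene Snhg20 on the same strand, and no probe set of a single symbol read Snhg20.

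Mir335 and Mir483 lie within the imprinted genes Mest and Igf2, which are expressed from the paternal allele. Mir335 read 5.98 in both inputs, 5.89 in the FLAG:Ctrl RIP, 7.06 in the MKRN1-labelled RIP and, with IgG, 5.63. Its 4 other values thus lay close to the filter and to each other. With Mir6516 it was 1 of 2 members that were 2-fold above the FLAG:MKRN1 input, at 1.08, where 2.47% of all kept genes were. Mir483 read 7.39 and 7.38 in the inputs, 7.08 in the FLAG:Ctrl RIP, 8.28 in the MKRN1-labelled RIP and, with IgG, 7.26, a difference of 1.19 and 1.02 from the control RIPs. In each of these genes the MKRN1-labelled RIP alone stood above a close group of the other 4 arrays.

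The remaining genes of the 6 formed a narrow group. Mir30d, of the widely expressed Mir30 family, read 7.17, 7.0, 6.68, 7.91 and 6.67 in the FLAG:Ctrl input, FLAG:MKRN1 input, FLAG:Ctrl RIP, MKRN1-labelled RIP and IgG RIP. Mir328 read 8.45, 8.42, 8.08, 9.25 and 8.09 in the same order. Mir188, which lies in the X-linked chloride transporter gene Clcn5, read 6.81, 6.76, 6.59, 7.75 and 6.66. In all 3 the inputs were close to each other, the control RIPs lay below the inputs and the MKRN1-labelled RIP was the highest array. Their differences from the FLAG:Ctrl RIP were 1.23, 1.16 and 1.16, from the IgG RIP 1.24, 1.16 and 1.09, and from the input 0.90, 0.83 and 0.99.

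Some members passed 2-fold against 1 control RIP only. Mir679, from the imprinted Meg3 region, lay 1.08 above the FLAG:Ctrl RIP and 0.80 above the IgG RIP, and Mir3107 lay 1.00 and 0.90 above them. Mir187 lay 0.85 above the FLAG:Ctrl RIP and 1.06 above the IgG RIP. Mir345, just under 2-fold against both, read 7.03 and 6.73 in the inputs, 6.59 in the FLAG:Ctrl RIP, 7.58 in the MKRN1-labelled RIP and, with IgG, 6.65. Mir345 was chosen for display after its values were seen. Mir320, known for a hairpin made without Drosha, lay 0.91 and 0.80 above the control RIPs and read 7.23, 7.23, 7.08, 7.99 and 7.20 in the order given above; it too was chosen after its values were seen.

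**Figure D3:**
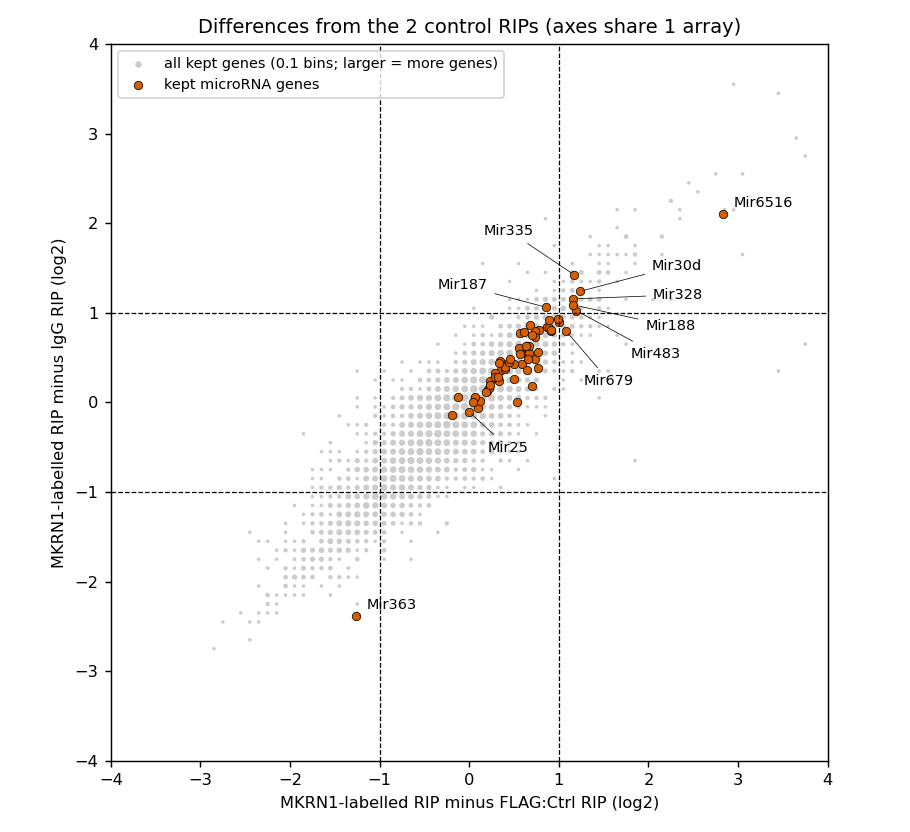
Difference of the MKRN1-labelled RIP from the FLAG:Ctrl RIP (horizontal) and from the IgG RIP (vertical), in log2, for the 63 kept microRNA genes and, as grey points sized by number of genes, all 11502 kept genes. Dashed lines mark 2-fold, the axes share an array, and Mir363 lies at -1.27 and -2.39 while the bulk of microRNA genes lies above 0 on both axes.

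Mir363 ran the other way. This microRNA of the X-linked Mir106a-363 cluster read 8.21 in the FLAG:Ctrl input, 7.93 in the FLAG:MKRN1 input, 6.87 in the FLAG:Ctrl RIP, 5.60 in the MKRN1-labelled RIP and, with IgG, 7.99. The inputs and the IgG RIP lay together at the top, the FLAG:Ctrl RIP between, and the MKRN1-labelled RIP at the bottom and below the level filter. The difference was -1.27 from the FLAG:Ctrl RIP (2.40-fold lower), -2.39 from the IgG RIP (5.23-fold lower) and -2.33 from the input (5.04-fold lower). It was the 1 member at least 2-fold below the FLAG:MKRN1 input, where 5.51% of all kept genes were. Both anti-FLAG RIPs were below their inputs for this gene, at -1.35 in the FLAG:Ctrl lysate and -2.33 in the FLAG:MKRN1 lysate, while the IgG RIP lay 0.05 above its input.

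The comparison of the stem cell clusters with the other members rested on few genes. No symbol of the Mir290 series was named by any probe set in the table used, so that cluster is not analysed here. Of the Mir17 family, 13 genes had a probe set, and Mir363 and Mir25 were kept. Mir25, which lies with Mir93 and Mir106b in an intron of the replication helicase gene Mcm7, read 6.94 on 4 arrays and 7.05 in the IgG RIP. Its difference was therefore 0.00 against the FLAG:Ctrl RIP and the input and -0.11 against the IgG RIP. These values have no settled sign, since centring on all probe sets moved them to -0.20, -0.11 and -0.28 and centring on the kept genes to 0.16, 0.04 and 0.04. The median of these 2 genes was -0.63, -1.25 and -1.17 for the differences from the FLAG:Ctrl RIP, the IgG RIP and the input, and that of the 61 other members 0.62, 0.49 and 0.36. The median of 2 genes is the midpoint of Mir363 and Mir25, and nothing is read from it about the clusters.

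Unlike Mir363, the 11 members of the Mir17 family below the filter did not lie below the control RIPs. Their median difference from the FLAG:Ctrl RIP was 0.24, with a range from 0.00 to 0.65, and from the IgG RIP and the input it was 0.22 each. Over all 237 microRNA genes below the filter the same medians were 0.23, 0.21 and 0.14, so nothing particular to the family is read from them. Mir93, with the largest of the 11 differences from the FLAG:Ctrl RIP, read 5.30 and 5.33 in the inputs. It read 4.99 in the FLAG:Ctrl RIP, 5.64 in the MKRN1-labelled RIP and, with IgG, 5.30. Mir20b and Mir106a, from the same cluster as Mir363, were at 0.00 from the FLAG:Ctrl RIP, at levels of 3.82 and 3.61 in it. The host transcript Mir17hg, kept at a mean of 5.78, lay 0.20 below the FLAG:Ctrl RIP, 0.14 below the IgG RIP and 0.27 below the input. The 5 measured genes of the Mir302 series, also typical of pluripotent cells, were all below the filter, with a median of 0.04 and a range from 0.00 to 0.38 against the FLAG:Ctrl RIP.

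Genes with the same seed did not share their values. Mir92b, which has the seed of Mir363 and Mir25, read 7.45 in both inputs, 7.26 in the FLAG:Ctrl RIP, 7.94 in the MKRN1-labelled RIP and, with IgG, 7.07. It thus lay 0.68 and 0.86 above the control RIPs, where Mir363 lay below both and Mir25 was level with the FLAG:Ctrl RIP. Among the let-7 genes, whose mature forms restrain the stem cell state, 2 of 9 were kept; these 9 are counted by symbol, with Mirlet7a-2 and without Mir98. Mirlet7e read 6.02, 5.95, 5.84, 6.73 and 5.81 and Mirlet7i 6.20, 6.29, 6.24, 6.53 and 6.25, in the order FLAG:Ctrl input, FLAG:MKRN1 input, FLAG:Ctrl RIP, MKRN1-labelled RIP and IgG RIP. Both were highest in the MKRN1-labelled RIP, by 0.89 and 0.29 over the FLAG:Ctrl RIP. The 7 let-7 genes below the filter had a median of 0.39 against the FLAG:Ctrl RIP (0.10 to 0.94) and of 0.47 against the IgG RIP (-0.27 to 0.99).

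Members encoded close together were compared with the long transcripts around them. The imprinted Meg3 to Mirg region of chromosome 12, expressed from the maternal allele, held 40 named microRNA genes, of which Mir673, Mir540, Mir431, Mir341, Mir679, Mir666, Mir667 and Mir134 were kept. All 8 lay above both control RIPs, by a median of 0.59 (0.35 to 1.08) over the FLAG:Ctrl RIP and 0.66 (0.39 to 0.84) over the IgG RIP. They lay above the input by a median of 0.56 (0.15 to 0.80), and in the FLAG:Ctrl RIP they lay at or below its input, by a median of -0.15. Over all 63 members, 56 lay above both control RIPs, and the same medians were 0.61, 0.48, 0.33 and -0.20. The direction is therefore not particular to the region, and its genes below the filter were not summarised. Mir341 read 7.47 and 7.77 in the inputs, 7.28 in the FLAG:Ctrl RIP, 7.92 in the MKRN1-labelled RIP and, with IgG, 7.39. The lncRNA Rian, whose span holds Mir341 on the same strand, read 9.24 and 7.35 in the inputs, 5.43 in the FLAG:Ctrl RIP, 4.14 in the MKRN1-labelled RIP and, with IgG, 6.43. Rian thus ranged far more widely over the arrays than Mir341. Against the control RIPs Rian lay below 0, at -1.29 and -2.29, and Mir341 above it, at 0.64 and 0.54.

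Of 20 pairs of a member and a kept gene with an overlapping span, 12 were known to lie on the same strand. The others, on the opposite strand or with a strand not known here, were left out. Across the 12, the microRNA gene lay above the surrounding gene in 11 pairs against the FLAG:Ctrl RIP, in 11 against the IgG RIP and in 9 against the input. The medians were 0.64, 0.58 and 0.41 for these microRNA genes and 0.21, 0.15 and 0.20 for the surrounding genes. Over all 63 members they were 0.61, 0.48 and 0.33. Mest read 7.43 and 8.72 in the inputs, 7.48 in the FLAG:Ctrl RIP, 7.89 in the MKRN1-labelled RIP and, with IgG, 8.25, so it was 1.30 apart between inputs in which Mir335 read the same. Clcn5 lay at -0.27 from both control RIPs, where Mir188 lay at 1.16 and 1.09. Igf2 lay at 0.30 and 0.27, where Mir483 lay at 1.19 and 1.02. Mcm7 read 9.64 in the MKRN1-labelled RIP and 9.75 to 9.92 elsewhere, at -0.28 from the FLAG:Ctrl RIP, where Mir25 lay at 0.00. The exception among the 12 against the FLAG:Ctrl RIP was Mir423, at 0.23 where the splicing regulator gene Nsrp1 lay at 0.60. Only differences within a probe set are compared here, since the probe sets read different sequences.

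**Figure D4:**
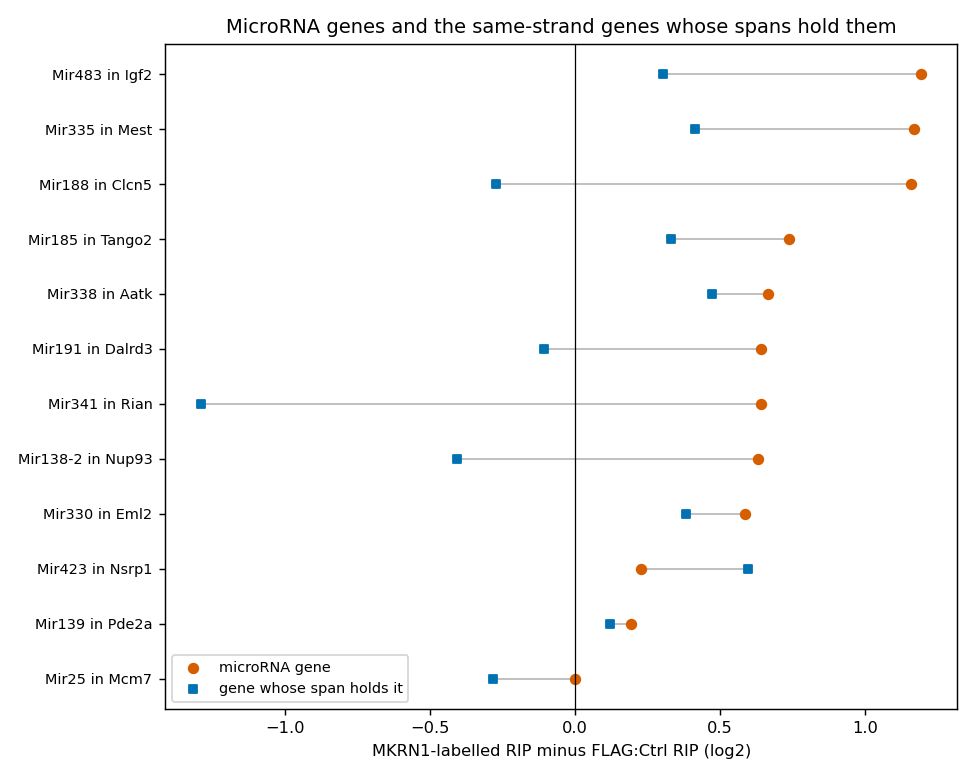
Difference of the MKRN1-labelled RIP from the FLAG:Ctrl RIP (log2) for 12 kept microRNA genes (circles) and for the kept same-strand gene whose span holds each (squares). The microRNA gene lies to the right in 11 of 12 pairs, with the widest gap for Mir341 in Rian.

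Few members set the inputs or the control RIPs apart. Beside Mir6516, the widest input differences were those of Mir330, 7.24 in the FLAG:Ctrl input and 6.26 in the FLAG:MKRN1 input, and of Mir680-2, at -0.50. Mir330 read 5.77 in the FLAG:Ctrl RIP, 6.36 in the MKRN1-labelled RIP and, with IgG, 5.93, and so was highest in the FLAG:Ctrl input alone. Mir330 and Mir363 were the 2 members at least 2-fold apart between the FLAG:Ctrl RIP and its input, at -1.47 and -1.35, where 1.32% of all kept genes were. Next among the members came Mir210, a hypoxia-induced microRNA, which read 7.56 and 7.46 in the inputs, 6.97 in the FLAG:Ctrl RIP, 7.71 in the MKRN1-labelled RIP and, with IgG, 7.22. No member was 2-fold apart between the IgG RIP and the FLAG:MKRN1 input, where 1.78% of all kept genes were, and the widest such differences were -0.80 in Mir6516, -0.62 in Mir692-1 and -0.51 in Mir150, with 0.41 in Mir680-2 the highest above 0.

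Mir598 varied little between arrays. It read 10.55, 10.78, 10.39, 10.49 and 10.55 in the FLAG:Ctrl input, FLAG:MKRN1 input, FLAG:Ctrl RIP, MKRN1-labelled RIP and IgG RIP, and lay 0.29 below the input in the MKRN1-labelled RIP. Mir383 lay 0.36 below it, and these were the lowest members after Mir363 in that comparison. Mir692-1 read 9.17 and 9.39 in the inputs, 8.78 in the FLAG:Ctrl RIP, 9.57 in the MKRN1-labelled RIP and, with IgG, 8.76. It thus lay 0.78 and 0.81 above the control RIPs. The 3 probe sets that name Mir692-2 and Mir692-3 together with Ftl1, which encodes the ferritin light chain, lay 0.44 to 0.80 above the FLAG:Ctrl RIP and 0.26 to 0.61 above the IgG RIP. The brightest probe set that names Ftl1 alone lay 1.54 and 1.49 above them. Mir134 and Mir296, which target transcripts of pluripotency factors during differentiation, lay 0.35 and 0.70 above the FLAG:Ctrl RIP and 0.46 and 0.76 above the IgG RIP.

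Many values of these genes were exactly equal between arrays (within 1e-06), which bears on how finely a difference can be read. Of the 63 members, 30 had at least 2 equal values and 15 at least 3, and Mir25 was 1 of 4 genes with 4. These counts were not made over all kept genes. The inputs were equal for 16 members, 25.4%, against 14.1% of all kept genes. Members were not richer in equal values in every pair. The FLAG:Ctrl input was equal to the IgG RIP for 25.4% against 19.2%, and to the FLAG:Ctrl RIP for 12.7% against 15.1%. For the FLAG:MKRN1 input these shares were 15.9% against 17.2% and 17.5% against 17.2%. The 2 control RIPs were equal for 7.94% against 17.8%. Pairs with the MKRN1-labelled RIP were equal for 1 or 2 members, 1.59% to 3.17%, against 6.77% to 8.74% of all kept genes. Mir129-1 was equal on 4 arrays at 7.07 and read 7.13 in the MKRN1-labelled RIP.

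Signal of the microRNA probe sets followed the base composition of the hairpin. G and C made up a median of 58.9% (41.3% to 69.2%) of the 48 kept hairpins with a sequence and 45.5% (28.4% to 61.9%) of 210 hairpins below the filter. The share of genes kept was 0 of 36 under 40% G and C, 5 of 115 from 40% to 50%, 22 of 81 from 50% to 60% and 21 of 26 at 60% or more. Across the 258 genes, which share the 5 arrays and are not replicates, Pearson's r of G and C content with the mean signal was 0.75 and Spearman's rho 0.79. With the difference of the MKRN1-labelled RIP from the FLAG:Ctrl RIP r was 0.19 and rho 0.26 over the 258 genes, and 0.02 and -0.03 over the 48 kept. The median of that difference was 0.14, 0.24, 0.32 and 0.48 in the 4 ranges of G and C content, from the lowest to the highest. With the difference of the FLAG:Ctrl RIP from its input r was -0.24 and rho -0.33 over the 258 genes. The part of base composition in the differences of the members was not tested beyond these values. Mir363, at 41.3%, and Mir335 were the kept hairpins lowest in G and C. The members were therefore selected among GC-rich hairpins, and how much of a probe set's signal is the abundance of its RNA was not tested.

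**Figure D5:**
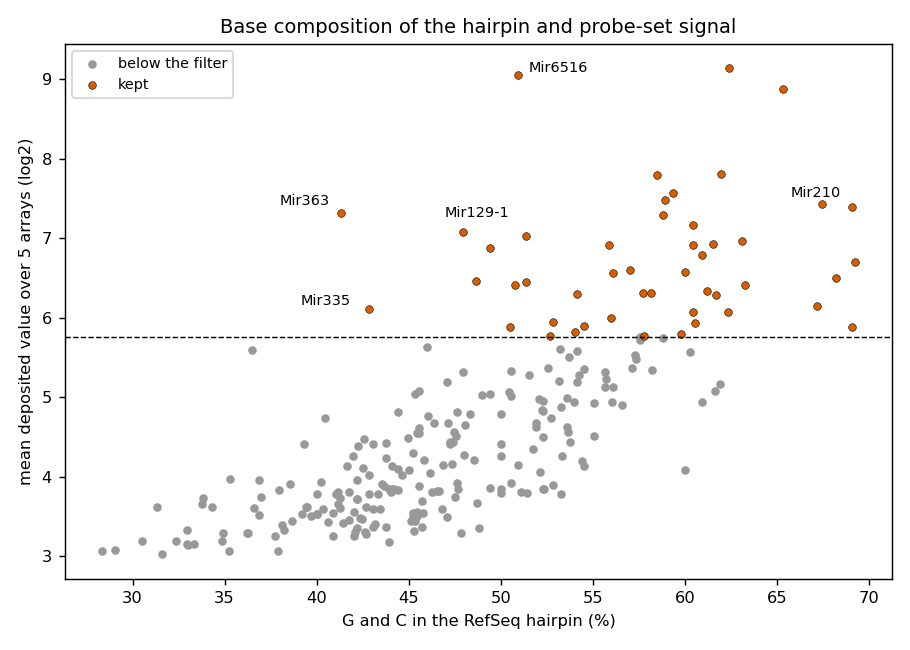
Mean deposited log2 value over the 5 arrays against the G and C content of the RefSeq hairpin (percent) for 258 microRNA genes, 48 kept and 210 below the filter (dashed line at 5.76). Signal is higher in GC-rich hairpins, and Mir363, at 41.3%, is kept at the left edge of the kept genes.

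The filter cut through a continuous range of levels. Just above it lay Mir448 (5.77), Mir680-1 (5.77) and Mir17hg (5.78), and just below it Mir211 (5.75), Mir26b (5.75) and Mir694 (5.72), as means over the 5 arrays. The 237 genes below the filter had median differences of 0.23 from the FLAG:Ctrl RIP, 0.21 from the IgG RIP and 0.14 from the input, and of -0.01 and -0.04 for the control RIPs against their inputs. For the MKRN1-labelled RIP 207 of them lay above and 6 below the FLAG:Ctrl RIP, and 204 above and 9 below the IgG RIP. Against the input 174 lay above and 41 below. The lean above the control RIPs was thus also seen below the filter. The median over all probe sets was itself highest in the MKRN1-labelled RIP, at 5.88. It was 5.68 in the FLAG:Ctrl RIP, 5.70 in the IgG RIP and 5.77 in the FLAG:MKRN1 input. These counts were not made over other genes below the filter, so nothing particular to microRNA genes is read from them.

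The messages of the microRNA pathway were read on the same arrays. Of 25 pathway genes with a probe set, 24 were kept and Ago4 was not. None of the 24 was 2-fold higher than both control RIPs and above the input, and Drosha, Dicer1 and Tut7 were lower by that rule, 12.5% of the 24. Of all kept genes 1.09% were higher and 5.36% lower, and of 4234 other kept genes with means in the middle 50% of the pathway genes' range, log2 7.62 to 10.13, 1.2% and 9.4% were. Drosha, the nuclease that releases the hairpin, read 10.18 and 10.26 in the inputs, 10.26 in the FLAG:Ctrl RIP, 9.02 in the MKRN1-labelled RIP and, with IgG, 10.31. Dicer1, the nuclease that cuts the loop away, read 10.95, 10.76, 11.24, 9.85 and 11.07 in the order of arrays used above, and Tut7, a uridyltransferase that acts on let-7 precursors, 8.12, 7.93, 8.49, 7.14 and 8.55. In all 3 the MKRN1-labelled RIP was the lowest array, apart from the other 4.

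Against the FLAG:Ctrl RIP 5 pathway genes were 2-fold apart, all lower: Dicer1, Drosha, Tut7, the hairpin exporter gene Xpo5 (-1.08) and Tnrc6c (-1.02), a partner of the Argonautes. That is 20.8%, against 8.73% of all kept genes and 14% of the genes of like level. These shares, and those given next for the IgG RIP, count both directions. Against the IgG RIP 4 were, Dicer1, Drosha, Tut7 and Cnot1 (-1.24), the scaffold of the deadenylase complex, which is 16.7% against 8.47% and 13.6%. The median over the 24 genes was -0.67 from the FLAG:Ctrl RIP (-1.40 to 0.75), -0.53 from the IgG RIP (-1.41 to 0.49) and -0.42 from the input (-1.25 to 0.38). The same medians were -0.03, -0.00 and 0.00 over all kept genes and -0.25, -0.24 and -0.09 over those of like level. The highest was Prkra, a double-stranded RNA binding partner of Dicer1, at 0.75 and 0.49 above the control RIPs. Lin28a stayed between 8.76 and 8.80 on all 5 arrays.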

How the data were processed

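RNA of 5 samples was read on Affymetrix mouse gene arrays, with 10 ng of RNA used for cDNA, per the labels' protocols. The authors deposited log2 values for 34760 probe sets. Their background correction, summarisation and normalization are not stated in the labels or file headers, and their range and near-equal quartiles gave the log2 scale. The values were used as deposited. Of 21640 probe sets with 1 gene symbol, 21553 matched RefSeq by gene ID, and the brightest of each gene gave 19937 genes, 11502 of them at or above the filter. Another 37 probe sets that name a microRNA among several symbols, 15 of them above the filter, were left out by the rule. Samples were grouped by title, and differences of log2 values were counted at 2-fold without a test. The counting was run on simulated arrays with planted changes well above 2-fold, little noise and no equal values. That run checks the code and does not show how the rule does on these data. Alternatives were centring, quantile normalization, removal of the trend with level, other filters, the median over probe sets and values raised to the filter; centring on kept genes and leaving out host transcripts were added after the data were seen.

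Genes named were those 2-fold from both control RIPs in the same direction, and members among the 4 highest and lowest per comparison. Not all of the latter are named. Also named were those nearest the filter, kept cluster and let-7 genes, up to 6 pathway genes and surrounding genes. Named after their values were seen were Mir679, Mir187, Mir3107, Mir345, Mir320, Mir92b, Mir129-1, Mir134, Mir423 and the other kept Meg3 region genes. So were the Mir17 family genes below the filter, Prkra, Lin28a and Ago4. The members and lists were chosen with earlier results of these data known. Python 3.11.15, pandas 2.3.3, numpy 2.4.6 and statsmodels 0.14.6 were used.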

Additional observations from a re-analysis of the deposited data

Results flagged for a closer look

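The anti-FLAG RIP lay on opposite sides of its own input in the 2 lysates. The median over the 63 kept microRNA genes was 0.33 above the input in the FLAG:MKRN1 lysate and -0.20 in the FLAG:Ctrl lysate. Mir6516 was at 1.30 and -0.41, Mir335 at 1.08 and -0.090, and Mir330 at 0.093 and -1.47, in the same order. Each lysate is 1 pair of arrays, so these differences were not tested. A probe set that names Lncppara and Mirlet7b together, left out of the members because it has several symbols, read 6.51 and 6.52 in the inputs, 6.20 in the FLAG:Ctrl RIP, 7.64 in the MKRN1-labelled RIP and, with IgG, 6.44, 1.44 and 1.20 above the control RIPs.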

How the results depend on the processing

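In the order used here the counts as deposited were 6 members higher than both control RIPs and 1 lower, 9 apart from the FLAG:Ctrl RIP, 8 apart from the IgG RIP, 2 above and 1 below the input, 1 apart between the inputs, 2 between the FLAG:Ctrl RIP and its input and 0 between the IgG RIP and its input. Centring on the median of all probe sets gave 2 higher, 3 apart from the FLAG:Ctrl RIP, 4 apart from the IgG RIP and 1 above the input. Centring on the kept genes gave 10 higher and 16 apart from the FLAG:Ctrl RIP. These centrings moved the median of all kept genes against the FLAG:Ctrl RIP from -0.03 to -0.23 and 0.14, and that of the members from 0.61 to 0.40 and 0.77. Above the input, quantile normalization gave 6 and removal of the trend with level 1. With no filter, over 300 genes, 4 lay above and 4 below the input, 3 apart between the inputs and 3 between the IgG RIP and its input. A filter at the 75th percentile, which kept fewer genes, gave 2 higher and 0 lower, 3 apart from the FLAG:Ctrl RIP, 2 apart from the IgG RIP, 1 above and 0 below the input and 0 between the FLAG:Ctrl RIP and its input. The other counts stayed within 1.5 times, and the median over probe sets, values raised to the filter, leaving out snoRNA-overlapping genes (there were 0) and leaving out the 2 host transcripts changed no count. Under the scalings 53 to 61 members lay above the FLAG:Ctrl RIP and 50 to 62 above the IgG RIP. Of the 12 members recomputed by name only Mir25 changed sign, and neither the Mir17 family's nor the other members' median did. No paired analysis was possible because each group held 1 array. A single array per group and the many equal low values limit what can be read.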

Other observations

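Below the level filter, 3 microRNA genes chosen after their values were seen lay above the control RIPs by as much as some kept genes did. Mir3068 read 4.11 and 4.06 in the inputs, 4.20 in the FLAG:Ctrl RIP, 6.72 in the MKRN1-labelled RIP and, with IgG, 4.00, 2.52 and 2.72 above the control RIPs. Mir465 read 5.24 in both inputs and in the FLAG:Ctrl RIP, 7.30 in the MKRN1-labelled RIP and, with IgG, 4.96, 2.07 and 2.34 above the control RIPs. Mir9-1 lay 1.06 above the FLAG:Ctrl RIP and 0.88 above the IgG RIP. Of these, Mir3068 and Mir465 passed the filter value in the MKRN1-labelled RIP alone. In other genes below the filter both RIPs of the FLAG:MKRN1 lysate lay well below its input. Against the FLAG:MKRN1 input the MKRN1-labelled RIP lay at -2.47 in Mir301b, -1.38 in Mir128-1 and -1.27 in Mir103-2, also chosen after their values were seen. The IgG RIP lay at -2.84, -1.38 and -1.93 from that input, in the same order. Against the FLAG:Ctrl RIP the MKRN1-labelled RIP lay at 0.37, 0.13 and 0.51 in these genes.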
